A study of Mus musculus with 2 samples.

Results

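Cluster 2 is 1 of the 12 clusters into which the depositors divided natural killer (NK) cells of mouse bone marrow, spleen and tumour. Its members were taken as every cell that carried the depositors' cluster number 2 and a single hashtag. They numbered 1042 of 7479 cells with a single hashtag, a share of 13.9% (95% exact Clopper-Pearson interval 13.2% to 14.7%), and the other 6437 cells made up the other clusters. The labels describe C57BL/6 mice of 12 weeks that received MC38 cells, a mouse colon carcinoma line, under the skin and were then fed ad libitum or put through cycles of fasting, without saying whether this holds for the naive population. They were sorted as lineage-negative cells that carried NK1.1 and CD49b, marked with hashtag antibodies, mixed, and run in 1 lane of a droplet instrument with unique molecular identifiers (UMIs).

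The 10 hashtagged populations were named in the deposit as refed, fasted and ad libitum cells of bone marrow, refed, fasted, ad libitum and naive cells of spleen, and refed, fasted and ad libitum cells of tumour. The sources used here do not state how many mice gave each population, whether tissues shared mice, how refed cells were timed or what naive stands for. With 1 sample per population, differences carry no replicate check and no p-value. All intervals below cover counting error only. The hashtag alone assigned a cell to its tissue and feeding, and the 15-base codes behind the main diet comparison are shown 5′ to 3′ as the deposited list gives them.
bone marrow fasted: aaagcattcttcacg
bone marrow ad libitum: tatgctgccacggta
spleen fasted: gagtctgccagtatc
spleen ad libitum: tgcctatgaaacaag

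NK cells are innate lymphocytes that arise in bone marrow and kill stressed and transformed cells without an antigen receptor of their own. In mice they are known to mature from cells that carry CD27 and little CD11b (Itgam) to cells that carry CD11b, KLRG1 and large stores of granzymes, and the less mature cells are known for cytokine output and for dependence on transcription factors such as TCF-1. Fasting is known to raise circulating glucocorticoids and to lower insulin, and forkhead (FOXO) factors, which insulin signalling holds out of the nucleus, are known to drive genes of lymphocyte quiescence and survival.

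The cluster made up a larger share of bone marrow than of spleen or tumour. It held 44.5% of refed (150 of 337 cells; interval 39.1% to 50%), 39.7% of fasted (54 of 136; 31.4% to 48.4%) and 32.9% of ad libitum bone marrow cells (189 of 575; 29.0% to 36.9%). In spleen it held 15.6% of refed (230 of 1476; 13.8% to 17.5%), 9.56% of fasted (133 of 1391; 8.07% to 11.2%), 9.04% of ad libitum (163 of 1804; 7.75% to 10.5%) and 11.9% of naive cells (97 of 818; 9.72% to 14.3%). The 3 bone marrow populations therefore did not overlap the 4 spleen populations. The refed population had the highest share in both tissues, and its interval left out the ad libitum share in both. Tumour gave 26 cluster 2 cells of 942, a share of 2.76% (interval 1.81% to 4.02%), of which 20 were fasted, 5 refed and 1 ad libitum. The depositors divided these same cells into clusters, by steps that the sources do not state, so these shares describe the clustering. Whether a feeding state moved cells across a cluster border was not tested.

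**Figure D1:**
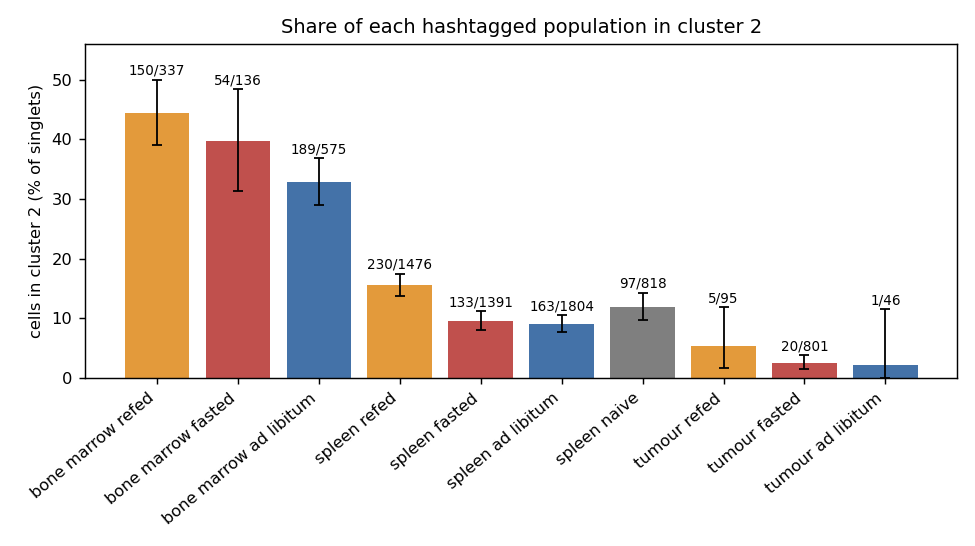
Share of the singly hashtagged cells of each population that fell into cluster 2, in percent, with 95% exact Clopper-Pearson intervals as error bars and cell numbers above the bars. Refed, fasted and ad libitum bone marrow stood at 44.5%, 39.7% and 32.9%, above all spleen and tumour populations.

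Cells of the cluster were deep. Their median was 6624.5 UMIs, against 4120 UMIs in cells of the other clusters. Within the cluster the medians of the 7 bone marrow and spleen populations ran between 4931 UMIs in fasted spleen and 7950 UMIs in ad libitum bone marrow, and fasted cells had the lowest median of each tissue. Ribosomal protein genes took 32.7% of UMIs in cluster 2 and 24.9% in the other clusters, and mitochondrial genes took 3.44% and 3.22%. A further 690 barcodes of cluster 2 were called doublets by the depositors and were left out (39.8% of its barcodes). Doublets of 2 cells of the same population carry 1 hashtag and stay among the cells counted here, and their part in depth or in cells with both T cell and NK cell genes was not tested. No barcode occurred more than once in the matrix.

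The labelled cell type was checked against marker lists. The 10 NK cell markers, among them Ncr1, Klrb1c and Eomes, were all detected and summed to 8061 CPM (UMI counts scaled to an equal total in every group) in cluster 2 and 9143 CPM in the other clusters. Over the 7 populations with at least 50 cluster 2 cells that sum ran between 6444 and 9140 CPM. Monocyte and macrophage markers summed to 39.7 CPM in cluster 2, against 513 CPM in the other clusters, and neutrophil markers to 35.0 CPM, against 655 CPM. The B cell genes Ms4a1, Ebf1 and Pax5 and the dendritic cell genes Xcr1, Clec9a, Siglech and Cd209a were at 0. Markers of ILC1, a resident relative of NK cells, summed to 924 CPM, against 746 CPM, with a range of 414 to 1138 CPM over the populations, and Xcl1 and Il7r, which NK cells also use, are on that list. Basophil or mast cell markers summed to 0.555 CPM, against 2.15 CPM, ILC2 markers to 75.3 CPM, against 84.6 CPM, erythroid markers to 229 CPM, against 263 CPM, dendritic cell markers to 212 CPM, against 352 CPM, and B cell markers to 135 CPM, against 96.9 CPM.

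T cell markers were higher in the cluster as well. They summed to 1216 CPM in cluster 2, against 707 CPM in the other clusters, with 1564 to 1758 CPM in the bone marrow populations and 708 to 1155 CPM in the spleen populations, and 8 of the 11 markers were higher in cluster 2. Cd8a and Cd4, which mark mature T cells, were at 0. The T cell receptor chain genes went the other way. Trac was at 26.9 CPM in cluster 2 and 15.2 CPM in the other clusters, and Trbc1 at 417 and 356 CPM. Trbc2 was at 374 and 247 CPM, and Trdc, which is not on the marker list, at 143 and 76.5 CPM. A Trac UMI was found in 13.2% to 16.7% of the cluster's cells in the bone marrow populations and in 2.17% to 9.20% in the spleen populations. Of the 236 cluster 2 cells with a UMI of Cd3d, a subunit of the CD3 complex of T cells that immature NK cells are also known to transcribe, 97.0% had a UMI of Ncr1 or Klrb1c and 16 had one of Cd8a, Cd8b1, Cd4 or Cd5. Of the 112 cells with a UMI of Cd3e, 95.5% had a UMI of Ncr1 or Klrb1c and 15 (13.4%) had one of those 4 T cell genes. Of the 930 cells without a Cd3e UMI, 98.3% had a UMI of Ncr1 or Klrb1c and 1 (0.108%) had one of the 4 T cell genes, and of the 806 cells without a Cd3d UMI 0 had one. No background share was had for Ncr1 or Klrb1c. Cells with a Cd3e UMI were 21.2% to 24.1% of the cluster in bone marrow and 1.30% to 7.36% in spleen. Without them 15 of 190 ratios of named genes left their counting interval and 2 turned sign, and 7 of 124 medians of gene lists moved by over 0.2. Both values are given below for some of these genes only, and for none of the lists.

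Against the other clusters, cluster 2 carried more RNA of early NK cell genes and less of late ones. A level is CPM over the summed UMIs of a group, and a difference is the log2 ratio of CPM + 5, which understates the change of low genes. Of 5314 genes at 20 CPM or more on either side, 15 (0.282%) were higher in cluster 2 past 2-fold and 164 (3.09%) were lower, and the median of all of them was -0.15. TMM factors raised that median by 0.15 and gave 21 higher and 121 lower genes. The clusters were drawn on these same cells, and which genes were used is not stated, so the comparison is a description and carries no test.

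Of 15 immature NK genes 14 lay above 0 and 7 were past 2-fold, with a median log2 ratio of 0.79. Cd3g, with the highest ratio on this list (2.39), is counted among the 7. It is also on the T cell marker list, so these lists are not separate. Cd27, a costimulatory receptor of the TNF receptor family, stood at 168 CPM in cluster 2 and 80.6 CPM in the other clusters, and within single populations its log2 ratio lay between 0.50 and 1.09, higher in 7 of 7. Ltb, which encodes lymphotoxin beta, stood at 410 and 130 CPM (log2 ratio 1.62, interval 1.55 to 1.68), and Il7r, the receptor of the survival cytokine interleukin 7, at 60.8 and 13.5 CPM (1.83, 1.67 to 1.99). Tcf7, which encodes TCF-1, reached 93.8 CPM, against 38.6 CPM (1.18, 1.05 to 1.30), yet in refed bone marrow it differed by only 0.03. Cxcr3, a chemokine receptor for inflamed tissue, was at 94.5 and 41.7 CPM (1.09, 0.97 to 1.21). Slamf6, a receptor of the SLAM family, was at 41.5 and 13.9 CPM, but in the bone marrow populations its log2 ratio was -0.01 to 0.24, whereas in the spleen populations it was 1.01 to 2.15. Across all 7 populations, 10 of the 15 immature genes (66.7%), Cd3g among them, were higher in every one, against 3.84% of all measured genes. Il18r1, the immature gene below 0 over all cells (-0.07), was higher in 1 of 7.

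At 50 CPM or more, the 2 genes with the highest ratios were Cd3d, at 182 CPM in cluster 2 and 27.5 CPM in the other clusters (2.52, 2.41 to 2.63), and Cd3g, at 122 and 19.2 CPM (2.39, 2.26 to 2.52). They are neighbours on mouse chromosome 9 (mm10), with Cd3d at 44981786 to 44987339 on the plus strand and Cd3g at 44969572 to 44980431 on the minus strand. Cd3d stood at 310, 300 and 295 CPM in refed, fasted and ad libitum bone marrow cells of the cluster, and at 49.2, 74.3, 129 and 149 CPM in refed, fasted, ad libitum and naive spleen cells. The tissues did not overlap, and the share of all genes that part in this way was not counted. In the other clusters Cd3d was likewise higher in bone marrow than in spleen. Its log2 ratio there was 2.82, 1.73 and 1.38 in refed, fasted and ad libitum cells, and in cluster 2 it was 2.54, 1.94 and 1.16. Without the cells that had a Cd3e UMI, a step chosen after the values were seen, the log2 ratio of Cd3d against the other clusters was 1.57, that of Cd3g 1.30, that of Il7r 1.22 and that of Ltb 1.44.

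Other genes with the highest ratios at 50 CPM or more were Kbtbd11 (1.18), the receptor gene Cd160 (219 and 109 CPM, 0.97), the glutathione transferase gene Mgst2 (0.87), Fam189b (0.79), Emb, which encodes the monocarboxylate transporter partner embigin (0.76), the surface receptor gene Cd7 (442 and 260 CPM, 0.75), Limd2 (0.65) and the zinc finger gene Zfp512 (0.57). All but Emb and Zfp512 were higher in each of the 7 populations. Emb was higher in 6 of 7 and Zfp512 in 4 of 7. Xcl1, a chemokine that draws dendritic cells, was higher in 7 of 7 although its ratio over all cells was only 0.27 (817 and 676 CPM); in fasted tumour it stood at 1340 CPM in cluster 2 and 1403 CPM in the other clusters. Csf2, which encodes the myeloid growth factor GM-CSF, was low on both sides at 20.5 and 3.45 CPM (1.59).

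All 12 measured mature NK genes lay below 0, 8 of them past 2-fold, with a median log2 ratio of -1.38. Within single populations the list's median ran between -1.45 and -0.45, and 10 of the 12 genes (83.3%) were lower in all 7, against 17.9% of all measured genes. Klrg1, an inhibitory receptor of terminally matured cells, was at 24.3 CPM in cluster 2 and 104 CPM in the other clusters (-1.90). Itgam, the CD11b integrin chain, was at 40.2 and 116 CPM (-1.42), and refed bone marrow was the single population in which it was higher (0.46). Ly6c2 was at 288 and 505 CPM (-0.80) but was higher in 2 of 7 populations. These were fasted bone marrow (1.18, 0.74 to 1.63) and refed bone marrow (1.41, 1.22 to 1.61). Zeb2, a transcription factor needed for terminal NK maturation, was at 119 and 310 CPM (-1.35). S1pr5, the sphingosine 1-phosphate receptor by which NK cells leave bone marrow, was at 42.0 and 99.0 CPM (-1.14). Cx3cr1, a chemokine receptor of circulating mature cells, was at 2.36 and 33.8 CPM (-2.40), and Irf8, a transcription factor of NK maturation, at 186 and 540 CPM (-1.52).

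RNA of the lytic granule proteins lay on the same side. Gzmb, the granzyme that triggers apoptosis of the target cell, was at 310 CPM in cluster 2 and 1646 CPM in the other clusters (-2.39), and it was lower in each of the 7 populations, by -2.21 to -0.14. Prf1, which encodes the pore former perforin, was at 120 and 310 CPM (-1.33), and Gzma at 5336 and 13094 CPM (-1.29). Over all 12 cytotoxic effectors measured, 1 was higher and 4 were lower past 2-fold, with a median of -0.64. Gzmm, another granzyme, was the higher one (39.3 and 16.3 CPM, 1.06). Eomes, a transcription factor that sets NK cells apart from ILC1, stood at 213 and 206 CPM (0.04), and of the 15 NK identity genes none passed 2-fold in either direction.

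The genes lowest in cluster 2 depended on which cells the other clusters held. Gzmc, Gzmd, Gzme and Gzmf, closely related granzymes of strongly activated killer cells, had log2 ratios of -4.39, -4.16, -3.64 and -3.02, and without the tumour populations that of Gzmc was -1.30. The myeloid genes Lyz2 (-4.00), S100a9 (-3.77), S100a8 (-3.67), Camp (-3.38), Cxcl2 (-3.60) and Apoe (-2.96) also led this end. Without cluster 10 among the other clusters, a step chosen after the values were seen, Lyz2 stood at -1.20, S100a9 at -0.08, S100a8 at -0.17 and Camp at -0.28. Mki67, a marker of dividing cells, was at 13.9 and 119 CPM (-2.71) and at -1.76 without cluster 10. The remaining ones were Cenpf, a centromere protein of dividing cells (-2.67), and the interferon-induced genes Ifitm3 (-3.24), Ifitm2 (-3.06) and Cxcl10 (-2.48). All 17 dividing cell genes lay below 0, 12 of them past 2-fold, with a median of -1.52, or -0.52 without cluster 10. Of 18 interferon-induced genes 7 were lower past 2-fold (median -0.69, or -0.12 without the tumour populations). Oxidative phosphorylation genes (29, median 0.01) and genes of MYC and the nucleolus (15, median 0.10) included none past 2-fold.

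**Figure D2:**
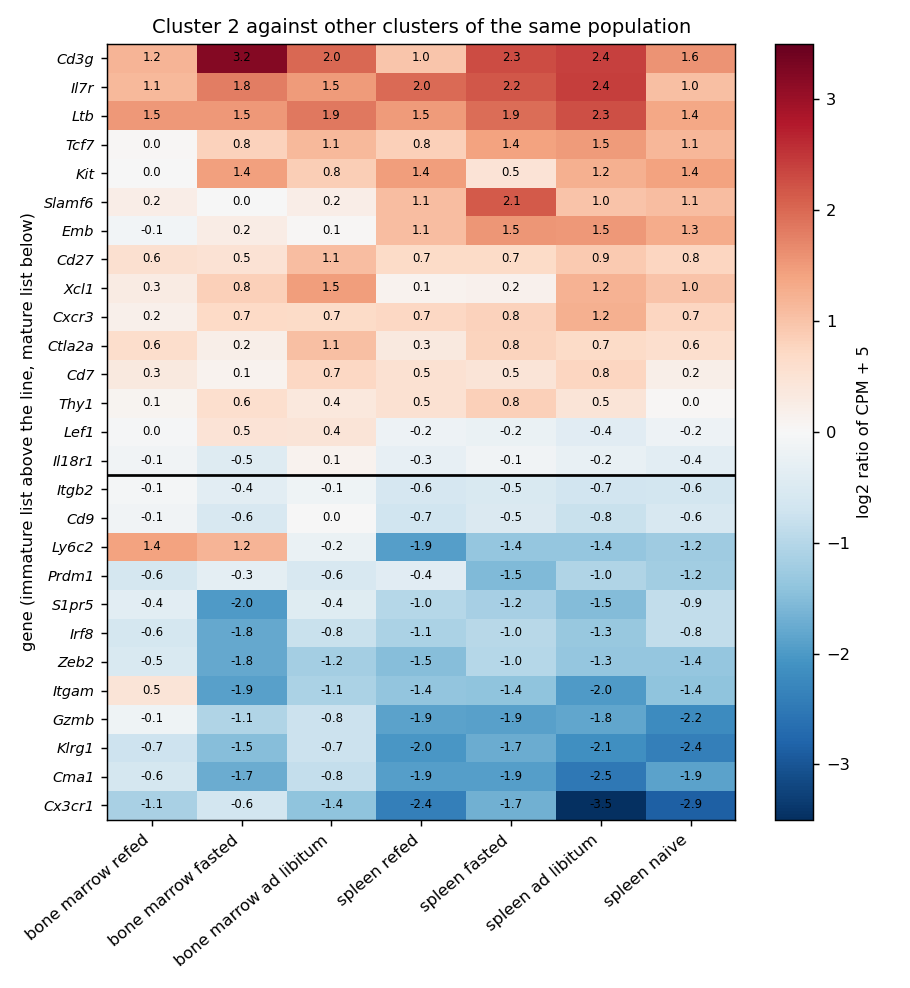
Log2 ratio of CPM + 5 of cluster 2 over the other clusters of the same population, for the immature NK list (above the line) and the mature NK list (below), in the 7 populations with at least 50 cells on both sides. Il7r, Ltb and Cd27 were higher in all 7 populations and Gzmb, Zeb2 and Klrg1 lower in all 7. The median of the mature list was nearest 0 in refed bone marrow (-0.45). Ly6c2 of that list was higher in fasted and refed bone marrow (1.18 and 1.41).

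Cells were also counted one by one after each was thinned to 1500 UMIs, which left 1022 cells of cluster 2 and 5955 of the other clusters and dropped 20 and 482 shallower ones. A Cd27 UMI was found in 22.1% of cluster 2 cells and in 12.2% of other cells, and an Itgam UMI in 6.85% and 18.4%. Before thinning the shares were 62.4% and 29.2% for Cd27, and 20.3% and 38.9% for Itgam. Ltb was found in 36.1% and 11.0% of thinned cells, Il7r in 6.85% and 1.58%, Klrg1 in 3.42% and 16.1%, Zeb2 in 17.5% and 40.6%, and Gzmb in 29.6% and 64.1%. As a guide to free RNA in the droplets, 40 cells with at least 20 myeloid UMIs and no Ncr1 or Klrb1c UMI, a class set after the values were seen, with a median of 10832.5 UMIs, had Cd27 in 0%, Cd3d in 0%, Ltb in 7.5%, Il7r in 5.0% and Gzmb in 10.0% of cells at the same thinned depth. These levels rest on few cells and may be too low as a guide. Cells were picked for having no Ncr1 or Klrb1c UMI, which favours those with little free NK cell RNA. They were also deeper than cluster 2 cells (median 6624.5 UMIs), so free RNA may be a smaller part of their thinned UMIs. The Il7r level, 2 of 40 cells, has an interval of 0.611% to 16.9%, which holds the Il7r shares of cluster 2 and of the other clusters, so no difference in Il7r is read from the shares. The Ltb level has an interval of 1.57% to 20.4%, which holds the Ltb share of the other clusters.

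Joint classes gave the same picture. Cd27 without Itgam was found in 21.4% of cluster 2 cells and 10.2% of other cells, Itgam without Cd27 in 6.16% and 16.4%, both in 0.685% and 1.96%, and neither in 71.7% and 71.4%, so most cells could not be placed at this depth. The Cd27 class held 26.8% of refed, 39.6% of fasted and 19.3% of ad libitum bone marrow cells of the cluster, and 19.1% of refed, 23.7% of fasted, 17.6% of ad libitum and 21.1% of naive spleen cells. Intervals of these shares overlapped within spleen. In bone marrow the fasted interval, 26.5% to 54.0%, lay above the ad libitum interval, 13.9% to 25.6%.

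Ly49 receptors, the inhibitory and activating receptors for MHC class I that mouse NK cells acquire as they mature, were counted over 10 genes of the family, whose near-identical copies may share reads. No receptor UMI was found in 14.8% of thinned cluster 2 cells (interval 12.7% to 17.1%) and in 9.61% of other cells (8.87% to 10.4%), and the mean number of receptors was 1.90 and 2.21. In the 4 spleen populations the share without a receptor was 10.7% to 15.1% in cluster 2 and 4.90% to 6.90% in the other clusters. In bone marrow it was 14.4% to 24.5% and 15.9% to 20.2%, with overlapping ranges. Klra6 (Ly49F) had the highest ratio of the family (0.96), higher in all 7 populations, and Klra9 the lowest (-1.0).

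Within the cluster, ad libitum bone marrow and ad libitum spleen cells differed in the late genes. Of 5072 genes measured, 132 (2.60%) were higher in bone marrow past 1.5-fold and 244 (4.81%) were lower, so that 35.1% of them were higher. That share was 54.5% with TMM factors and 48.7% when ribosomal protein and mitochondrial genes were left out of the totals. Zeb2 stood at 63.9 CPM in bone marrow and 189 CPM in spleen (-1.5, -1.84 to -1.16), S1pr5 at 18.9 and 53.3 CPM (-1.29), the integrin gene Itgax at 50.2 and 103 CPM (-0.97) and Tnfrsf9, the activation receptor 4-1BB, at 43.7 and 102 CPM (-1.13). Klf2, a factor of lymphocyte egress and quiescence, was at 367 and 675 CPM (-0.87). The other clusters of the same populations differed by -1.64 in Zeb2 and by -2.37 in S1pr5. Of 10 mature NK genes 4 were lower past 1.5-fold and none higher (median -0.48, against -1.40 over 12 genes in the other clusters), and of 15 immature genes 4 were higher and 1 lower (median 0.22).

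Cd3g at 212 and 72.3 CPM (1.49), the junction adhesion molecule gene AMICA1 (1.29) and Cd3d at 295 and 129 CPM (1.16) had the highest ratios of the genes named as higher in bone marrow. Without cells with a Cd3e UMI Cd3g differed by 0.54 and Cd3d by 1.76. The histone gene H2afx (1.12), Zfp512 (1.07) and the immediate early factor Fosb (0.94) followed. Ikzf2, which encodes the transcription factor Helios, was at 65.2 and 32.3 CPM (0.91), but at -0.09 without cells with a Cd3e UMI. All 16 MYC and nucleolar genes measured lay above 0, with a median of 0.27 and 1 of them past 1.5-fold, against a median of 0.95 in the other clusters. The median of all measured genes in cluster 2 was -0.06.

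Fasting was studied by setting fasted against ad libitum cells of the cluster in each tissue. Fasted cells carried more RNA of glucocorticoid targets and of FOXO-linked quiescence genes and less of chemokine genes in both tissues. In spleen 503 of 5235 genes measured (9.61%) were higher in fasted cells past 1.5-fold and 344 (6.57%) lower, a split of 59.4% higher that became 47.1% with TMM factors. In bone marrow 577 of 5200 genes (11.1%) were higher and 471 (9.06%) lower. With each gene's highest cell left out of either population those bone marrow counts became 350 and 720. With cells thinned to 1500 UMIs they became 1585 and 1444. Here and in the other counts past a fold only the fold was asked for. Genes whose interval holds a ratio of 1 are therefore counted too, and the counts do not measure the size of a response. The bone marrow fasted population held 54 cluster 2 cells and 373191 UMIs, the fewest of the 7, so its ratios were the least precise.

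Of the glucocorticoid targets, 9 of 11 measured genes were higher past 1.5-fold in fasted spleen and 10 of 12 in fasted bone marrow, none was lower in either, and the medians were 0.99 and 1.17. In the other clusters they were 0.74 and 1.39. The medians of all measured genes were 0.02 and 0.01. The gene lists, this one included, were chosen with earlier results of these data known, so these counts are a description. Tsc22d3 (X chromosome, 140539528 to 140600659, minus strand, mm10) encodes GILZ, a mediator of glucocorticoid action. It stood at 52.2, 212 and 61.3 CPM in refed, fasted and ad libitum bone marrow, and at 45.9, 203, 70.4 and 60.5 CPM in refed, fasted, ad libitum and naive spleen. Both fasted populations lay above all 5 others, and the share of all genes that part in this way was not counted. The log2 ratio of fasted over ad libitum was 1.46 (1.07 to 1.86) in spleen and 1.71 (1.28 to 2.13) in bone marrow. Fkbp5, a cochaperone of the glucocorticoid receptor, was at 28.9, 75 and 16.3 CPM in refed, fasted and ad libitum bone marrow and at 38.6, 80.0, 31.4 and 28.6 CPM in refed, fasted, ad libitum and naive spleen (1.22 in spleen, 1.91 in bone marrow). Cxcr4, the receptor that holds lymphocytes in bone marrow, was at 87.1 CPM in fasted and 27.6 CPM in ad libitum spleen (1.5) and at 91.1 and 33.9 CPM in bone marrow (1.31).

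Of 16 FOXO and KLF2 quiescence genes, 7 were higher past 1.5-fold and none lower in each tissue, with medians of 0.53 in spleen and 0.45 in bone marrow. Txnip, Pik3ip1, Il7r and Zfp36l2 are on this list and on the glucocorticoid list, so the counts are not separate. Txnip (chromosome 3, 96557957 to 96561883, plus strand), which restrains glucose uptake, was at 129, 378 and 140 CPM in refed, fasted and ad libitum bone marrow and at 180, 474, 153 and 186 CPM in refed, fasted, ad libitum and naive spleen. Again both fasted populations stood above the rest, with the share of all genes that do so not counted. The log2 ratio of fasted over ad libitum was 1.60 (1.33 to 1.87) in spleen and 1.40 (1.09 to 1.71) in bone marrow. Pik3ip1, an inhibitor of phosphoinositide 3-kinase, was at 72.9 CPM in fasted and 21.9 CPM in ad libitum spleen (1.53) and at 64.3 and 18.2 CPM in bone marrow (1.58). Il7r (chromosome 15, 9505788 to 9530176, minus strand) was at 47.4, 212 and 42.4 CPM in refed, fasted and ad libitum bone marrow, and at 38.6, 117, 59.9 and 35.3 CPM in refed, fasted, ad libitum and naive spleen. Its fasted log2 ratio was 2.19 (1.73 to 2.65) in bone marrow, or 2.96 without cells with a Cd3e UMI, and 0.91 in spleen. Foxo1 itself, at -0.20 in spleen and 0.08 in bone marrow, lay near 0.

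**Figure D3:**
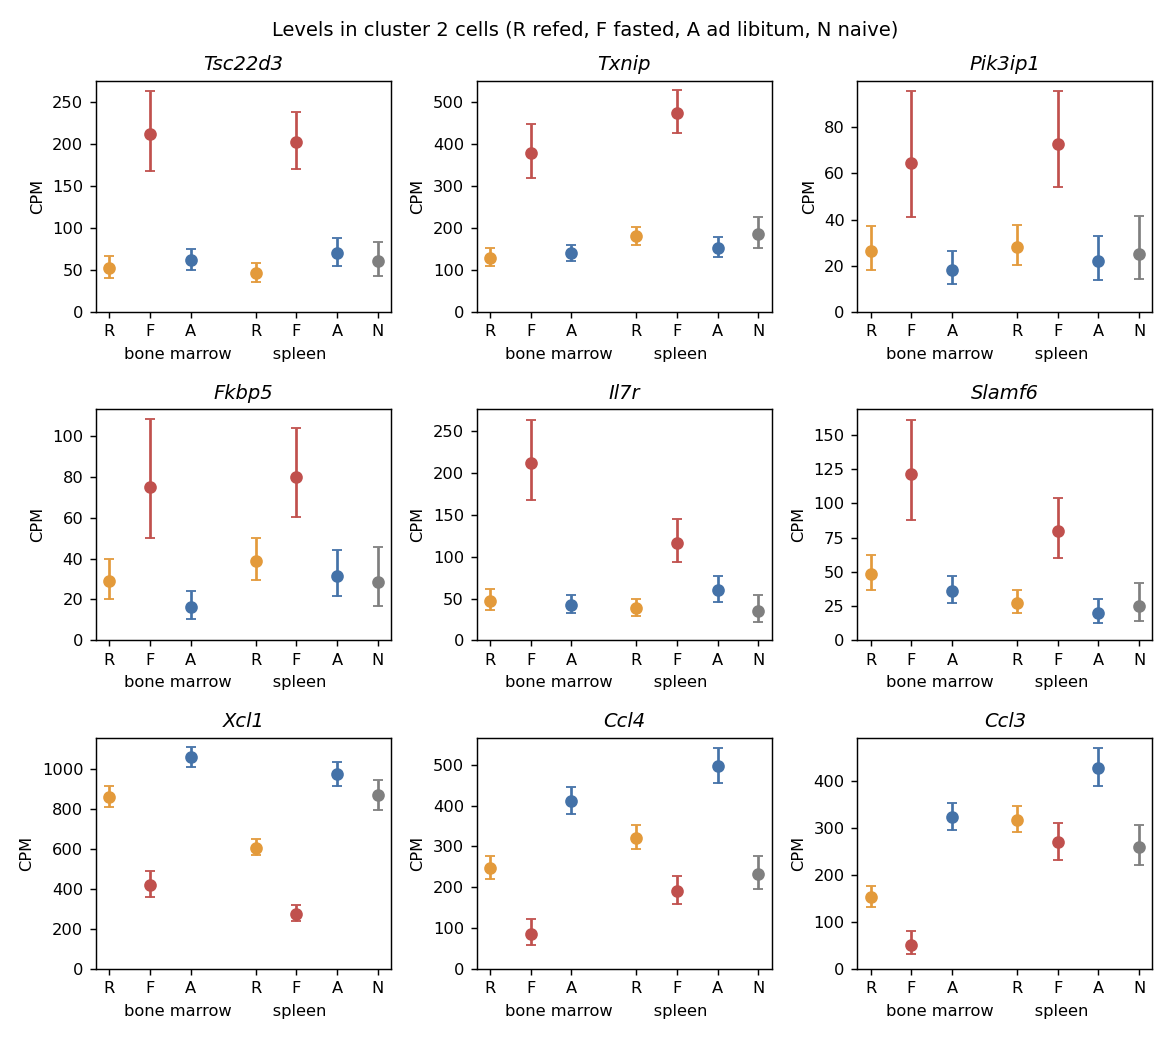
CPM of 9 genes in cluster 2 cells of 7 populations, with 95% exact Poisson intervals. Tsc22d3, Txnip, Pik3ip1, Fkbp5, Il7r and Slamf6 were highest in the fasted population of each tissue, and Xcl1 and Ccl4 lowest there. The share of all genes with either pattern was not counted.

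The start of Txnip and 1 of the 3 annotated starts of Tsc22d3 are shown because both genes were among those named as higher in fasted cells of both tissues and these windows hold a motif searched for. The other 2 windows of Tsc22d3 hold none of the motifs. Each window runs from 250 bases before to 50 bases after the start, from RefSeq on GRCm38.p6. Capitals mark GTAAACA, the reverse of the forkhead letters TGTTTAC, in Txnip (chr3:96557707-96558006, plus strand), and TGTTCT, the reverse of the glucocorticoid receptor half-site letters AGAACA, in Tsc22d3 (chrX:140600473-140600772, minus strand).
Txnip: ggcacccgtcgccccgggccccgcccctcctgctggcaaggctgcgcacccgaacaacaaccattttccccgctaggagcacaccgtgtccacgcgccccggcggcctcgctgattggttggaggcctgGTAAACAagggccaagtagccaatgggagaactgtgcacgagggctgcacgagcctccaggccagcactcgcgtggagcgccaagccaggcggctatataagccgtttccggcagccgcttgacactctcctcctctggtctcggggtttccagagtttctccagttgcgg
Tsc22d3: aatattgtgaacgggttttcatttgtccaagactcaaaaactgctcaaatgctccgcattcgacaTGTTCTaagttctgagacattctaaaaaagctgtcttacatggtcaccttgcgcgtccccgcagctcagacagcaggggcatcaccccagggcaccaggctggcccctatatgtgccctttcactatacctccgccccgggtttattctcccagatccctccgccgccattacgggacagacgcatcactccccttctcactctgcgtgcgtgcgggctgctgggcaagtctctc
Searched on both strands, the forkhead letters are in 3.65% of 32851 such windows and the half-site letters in 19.0%. The half-site letters are also in the window of Cxcr4, and CACGTG, in 7.15% of windows, is in that of Fkbp5. None of the 3 motifs was in the windows of Pik3ip1, Il7r, Slamf6, Xcl1, Ccl3, Cd3d or Cd3g. A match is a run of letters and not a measured binding site.

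Slamf6 had the highest ratio in spleen among genes at 50 CPM or more, at 80.0 CPM in fasted and 20 CPM in ad libitum cells (1.77, 1.12 to 2.41), and stood at 121 and 35.8 CPM in bone marrow (1.62, 1.06 to 2.16). In the other clusters it was at 14.2 and 7.43 CPM in spleen (0.63), and at 121 and 29.8 CPM in bone marrow (1.86). Bbc3, which encodes the death protein PUMA, was at 96.5 CPM in fasted and 22.2 CPM in ad libitum bone marrow (1.90) and at 70.0 and 40.9 CPM in spleen. Rab27a, needed for the release of lytic granules, was at 58.6 and 20 CPM in spleen (1.35). The other genes named by rule as higher were Thap3 (1.37), Crebrf (1.28) and Qrfp (1.25) in spleen, and Socs2, a feedback inhibitor of cytokine signalling (1.63), Tmem106b, a lysosomal membrane protein gene (1.62), and Ccdc88a (1.40) in bone marrow. Cpt1a and Slc25a20, which carry fatty acids into mitochondria for oxidation, were at 35.7 and 34.3 CPM in fasted spleen, against 12.4 and 7.61 CPM in ad libitum spleen, and 3 of 13 fatty acid oxidation genes passed 1.5-fold there (median 0.30). In bone marrow 3 of 14 were higher and 2 lower (median 0.18).

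Chemokine and cytokine genes lay on the other side. Of 7 measured, 4 were lower past 1.5-fold in fasted spleen and none higher (median -0.66), and in fasted bone marrow 4 were lower and 1 higher (median -1.32). Xcl1 (chromosome 1, 164931644 to 164935527, minus strand) was at 862, 421 and 1059 CPM in refed, fasted and ad libitum bone marrow and at 607, 276, 974 and 868 CPM in refed, fasted, ad libitum and naive spleen. The 2 fasted values were the lowest of the 7, and the share of all genes with this order was not counted. Its log2 ratio was -1.80 (-2.03 to -1.58) in spleen and -1.32 in bone marrow. Ccl4, a chemokine of activated NK cells, was at 247, 85.7 and 411 CPM in refed, fasted and ad libitum bone marrow and at 322, 191, 498 and 233 CPM in refed, fasted, ad libitum and naive spleen. Ccl3, its neighbour on chromosome 11, was at 153, 50.9 and 323 CPM in bone marrow and at 317, 269, 427 and 260 CPM in spleen in the same order, so in spleen the fasted and naive values were the lowest and close to each other. Ifng, the gene of interferon gamma, was at 34.8 CPM in fasted and 98.4 CPM in ad libitum bone marrow (-1.38) and at 74.3 and 137 CPM in spleen (-0.84).

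In bone marrow the fasted ratios of Ccl3 and Ccl4 in cluster 2 and in the other clusters lay apart, whereas Xcl1 was lower in fasted cells of both, at 234 and 380 CPM in the other clusters (-0.69). Ccl3 had a fasted log2 ratio of -2.55 (-3.21 to -1.94) in cluster 2 and of 0.65 (0.35 to 0.94) in the other clusters, where it was at 300 and 190 CPM. Ccl4 had -2.20 (-2.72 to -1.71) and 0.15 (-0.14 to 0.42). Klra1, the Ly49A receptor, had -1.46 (-2.0 to -0.95), at 83.1 and 237 CPM, and 0.23 (-0.06 to 0.52). The difference between cluster 2 and the other clusters was not tested, and the fasted bone marrow population held 82 cells of the other clusters. Tsc22d3 and Txnip, by contrast, had fasted ratios of 1.73 and 1.71 in those other clusters.

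Of the other genes named by rule as lower in fasted spleen, 3 encode proteins of the endoplasmic reticulum, a grouping made after their values were seen. Calr, the chaperone calreticulin, was at 206 CPM in fasted and 460 CPM in ad libitum spleen (-1.14), and Pdia6, a disulfide isomerase, at 70.0 and 185 CPM (-1.34). In bone marrow they were at 182 and 327 CPM, and 83.1 and 145 CPM. Sdf2l1, of the same compartment, had -1.38 in spleen. Tnfrsf9 was at 31.4 and 102 CPM in spleen (-1.55), and Tipin, a replication fork protein gene, had -1.35. Lsm6, of RNA splicing and decay, Ms4a4c and S100a4 were the other genes named by rule there. In bone marrow they were Srm, spermidine synthase (-1.96), Prr5l, a binding partner of an mTOR complex (-1.70), the nucleolar gene Lyar (-1.68), Stmn1, a microtubule regulator of dividing cells (40.2 and 132 CPM, -1.60), the receptor gene Slamf7 (-1.54), Tmem37 (-1.46) and Gzmb (121 and 323 CPM, -1.39). Srm, Prr5l and Lyar rest on only 4, 5 and 6 UMIs in fasted bone marrow. Their intervals were -2.98 to -0.86, -2.72 to -0.67 and -2.67 to -0.71. Of 34 genes named in either tissue, 32 lay on the same side of 0 in both. These genes were picked for extreme ratios in the same comparisons. Slamf6, Txnip, Pik3ip1, Tsc22d3, Fkbp5 and Ccl4 were named on the same side in both tissues, so their match follows from the naming. The share of all measured genes on the same side was not counted, so the 32 are a description.

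Among whole lists, 27 of 29 oxidative phosphorylation genes lay below 0 in fasted spleen and 27 of 29 in fasted bone marrow, by small amounts (medians -0.24 and -0.29), with 2 and 3 past 1.5-fold. Over all measured genes the medians were 0.02 and 0.01. MYC and nucleolar genes had medians of -0.33 and -0.50, with 2 of 15 and 4 of 16 lower past 1.5-fold. The mature NK list was near 0 in spleen (median 0.08, 0 of 10 past 1.5-fold in either direction), whereas in bone marrow 5 of 10 were lower and 1 higher (median -0.49). The immature list had 5 of 15 higher and 2 lower in spleen (0.17) and 3 of 14 higher and 1 lower in bone marrow (0.36). Dividing cell genes had a median of -0.82 in bone marrow, with 9 of 13 lower. Their spleen median of -0.40 over 9 genes turned to 0.06 when ribosomal protein and mitochondrial genes were left out of the totals. Fasted cluster 2 cells had the lowest median UMIs of each tissue, 4931 UMIs against 6244 UMIs in ad libitum spleen and 6608 UMIs against 7950 UMIs in ad libitum bone marrow, and the part of depth in these differences was not tested.

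Over 2401 genes at 50 CPM or more in both tissues, 98 (4.08%) were higher past 1.5-fold in fasted spleen and 107 (4.46%) in fasted bone marrow. Only the fold was asked for here, so genes whose interval holds a ratio of 1 are counted too. Higher in both were 34, which is 34.7% of the spleen genes and 31.8% of the bone marrow genes. Lower were 94 (3.92%) and 153 (6.37%), with 33 in both (35.1% and 21.6%). These shared genes include Bbc3, Cdkn1b, Ddit4, Emb, Klhl6 and Mgst2 on the higher side and Calr, Canx, Ccl3, Ccl4, Ifng, Mcm6 and Mcm7 on the lower. The 2 comparisons use different hashtags, but whether the mice were the same is not stated.

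**Figure D4:**
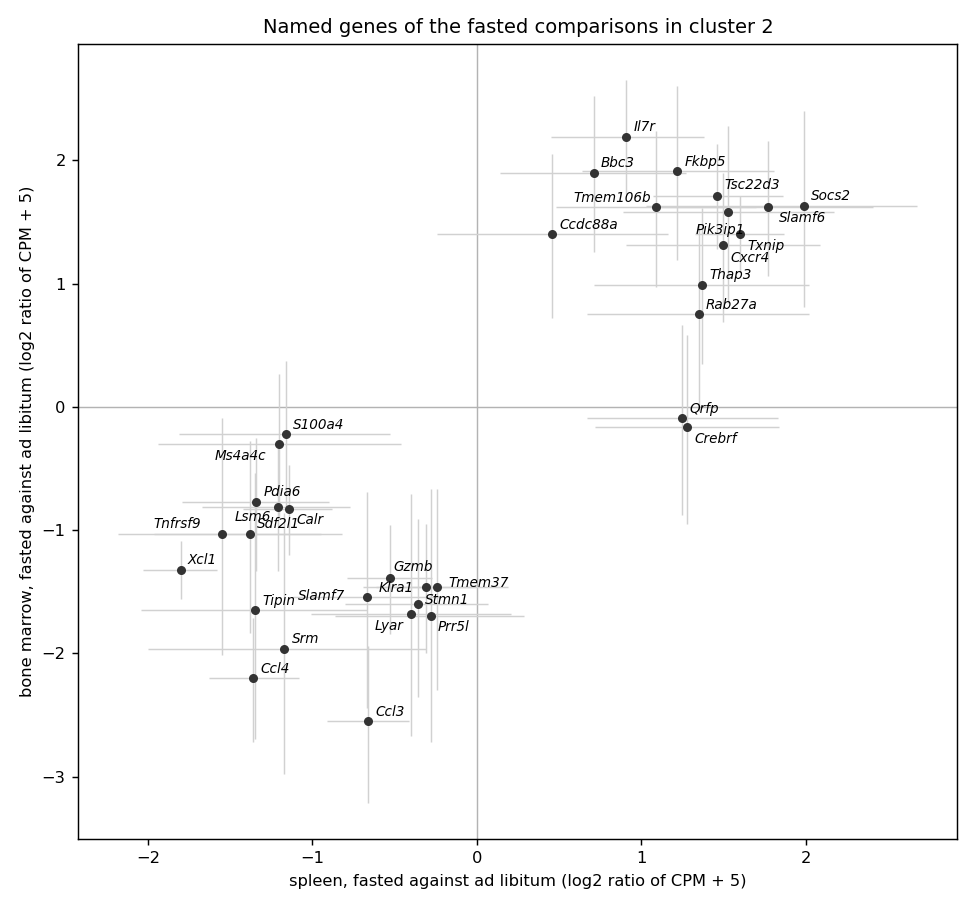
Log2 ratio of CPM + 5 of fasted over ad libitum cluster 2 cells in spleen (horizontal) and bone marrow (vertical) for the 34 genes named in either comparison, with 95% intervals for counting error. In the 2 corners where signs match lie 32 genes, and Qrfp and Crebrf, at -0.09 and -0.16 in bone marrow, lie outside them. The genes were picked for extreme ratios in these same comparisons.

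Refed cells were set against fasted cells next. Both this comparison and the previous one use the fasted population, so an extreme fasted value enters both with opposite sign. In spleen 271 of 5199 genes (5.21%) were higher in refed cells past 1.5-fold and 373 (7.17%) lower, a split of 42.1% higher that became 53.4% with TMM factors. In bone marrow 522 of 5233 (9.98%) were higher and 603 (11.5%) lower. With each gene's highest cell left out those bone marrow counts became 720 and 379. Glucocorticoid targets were lower past 1.5-fold in 9 of 11 genes in spleen and 10 of 12 in bone marrow (medians -1.24 and -1.23), and set against ad libitum cells their medians were -0.08 and -0.03. Tsc22d3 had a refed over fasted ratio of -2.03 (-2.43 to -1.63) in spleen and of -1.92 (-2.39 to -1.46) in bone marrow. Il7r had -1.49 and -2.05, Cxcr4 -1.81 and -1.57, Txnip -1.38 and -1.51, and Ddit4, an inhibitor of mTOR signalling, -1.48 and -1.38. Bcl2l11, the death protein BIM, was at 43.9 CPM in refed and 109 CPM in fasted spleen (-1.21).

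Heat shock genes stood higher after refeeding. All 9 measured genes lay above 0 in each tissue, 5 past 1.5-fold in spleen and 6 in bone marrow, with medians of 0.91 and 0.70. The median of all measured genes was -0.02 in each tissue. Set against ad libitum cells all 9 also lay above 0 in both tissues, with medians of 0.47 and 0.30. The other clusters had refed over fasted medians of 0.80 in spleen and 1.27 in bone marrow for this list. Hsp90ab1, a chaperone of signalling proteins, was at 1997, 1060 and 1725 CPM in refed, fasted and ad libitum spleen and at 1916, 1254 and 1577 CPM in bone marrow. Hsph1, a large chaperone of the same response, was at 61.9, 24.3 and 29.5 CPM in spleen and at 50.6, 18.8 and 25.4 CPM in bone marrow. The refed value was the highest of the 3 in each tissue for both genes. In spleen Pdia6 (205 CPM refed, 70.0 CPM fasted, 1.49), Calr (483 and 206 CPM, 1.21) and Tnfrsf9 (1.16) were higher too, and so was Ppa1, inorganic pyrophosphatase (1.33).

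In refed bone marrow, Srm (1.86), Lyar (1.83), Klra1 (279 CPM refed, 83.1 CPM fasted, 1.69), Stmn1 (1.53), Ifng (109 and 34.8 CPM, 1.52), Ccl3 (153 and 50.9 CPM, 1.49) and Ccl4 (247 and 85.7 CPM, 1.47) were higher than in fasted cells. Srm and Lyar again rest on 4 and 6 UMIs in the fasted population. Of 8 cytokine and chemokine genes 5 were higher past 1.5-fold (median 1.07). Ccl3 and Ccl4 were nonetheless below their ad libitum levels in refed bone marrow, by -1.06 and -0.73. Xcl1 in refed spleen, at 607 CPM, also lay below its ad libitum level of 974 CPM (-0.68, -0.81 to -0.55), whereas in the other clusters it lay above (0.40). In ad libitum spleen 1 cell held 19.3% of the cluster's Xcl1 UMIs. Without the highest cell of either population the cluster 2 ratio was -0.45, outside its interval.

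The MHC class II genes H2-Aa, Cd74 and H2-Ab1 had the highest refed over fasted ratios in spleen (2.31, 1.98 and 1.83). They rest on 1 cell, which held 332 of the 366 class II UMIs of the refed population (90.7%) together with 15 UMIs of the myeloid gene Lyz2 and 1 of Ncr1. Without each gene's highest cells the ratios were 1.05, 0.43 and 0.49. Cd3d in refed spleen, at 49.2 CPM against 129 CPM in ad libitum spleen (-1.31), was at 0.45 once cells with a Cd3e UMI were left out, and Cd3g, at -1.35, was at -0.38.

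**Figure D5:**
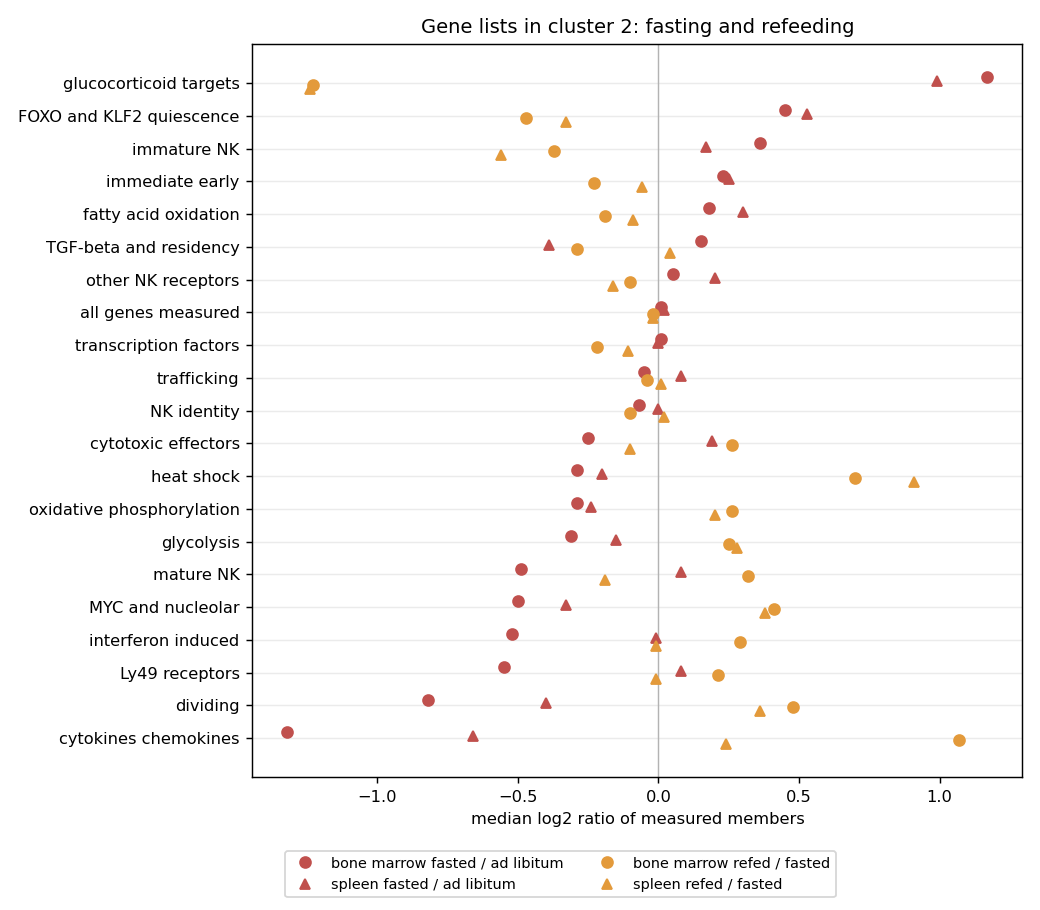
Median log2 ratio over the measured members of each list in cluster 2, for fasted over ad libitum cells (red) and refed over fasted cells (orange) of bone marrow (circles) and spleen (triangles). Glucocorticoid targets had fasted medians of 1.17 and 0.99 and refed medians of -1.23 and -1.24, and all measured genes lay near 0.

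Ad libitum spleen cells of the cluster were set against naive spleen cells last. Isg15, an interferon-induced ubiquitin-like protein gene, was at 56.1 CPM in ad libitum and 18.5 CPM in naive cells (1.38), Ccl4 at 498 and 233 CPM (1.08) and Gzmb at 363 and 186 CPM (0.94). S100a4 (1.15), Unc13d, which primes lytic granules for release (1.14), and Pkp3 (1.13) were also higher, and Rasa2, a brake on RAS (-1.17), and Phactr3 (-0.99) were lower. The interferon-induced list had a median of 0.20 over 10 genes. In the other clusters the ratios were 0.65 for Isg15, 0.16 for Ccl4 and 0.54 for Gzmb.

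Tumour cells of the cluster were too few for a comparison. The 20 fasted tumour cells held Gzmc at 1656 CPM and Gzmb at 745 CPM, against 7677 and 3462 CPM in the other fasted tumour cells. Ltb was at 334 CPM and Tcf7 at 83.4 CPM in these 20 cells, against 227 and 28.1 CPM. Eomes was at 47.7 CPM (8 UMIs, interval 20.6 to 93.9 CPM), against 121 CPM.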

How the data were processed

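The authors deposited raw UMI counts for every cell and gene, made with seqc per the labels' protocol. The submitters' processing notes name mm10 as the genome build. The authors also deposited the hashtag calls, the hashtag list and the cluster numbers. The sources used here do not state how hashtags were called or cells clustered. The matrix had 13118 cells and 16789 symbols, of which 16295 matched GENCODE M21. The 5606 cells called doublets and 33 without a call were left out.

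Counts were summed per population and scaled to CPM. Differences are log2 ratios of CPM + 5, with a 95% exact binomial interval given both totals. Summed UMIs ran from 373191 to 1534318 in the 7 populations compared, and were 7209683 in the cluster and 35350996 in the other clusters. Genes at 20 CPM or more on either side were measured. By rule, the 15 highest and 15 lowest ratios against other clusters and the 10 highest and 10 lowest of each comparison within the cluster were named, among genes at 50 CPM or more whose interval left out a ratio of 1. Within the cluster, the direction also had to hold without the gene's highest cell. Receptor and immunoglobulin genes of T and B cells, haemoglobin genes, ribosomal protein and mitochondrial genes and unnamed gene models were not named by this rule. Up to 4 members of each list were named besides, and a few other genes were chosen after their values were seen. Of 408 list genes 402 matched the matrix. Alternatives were TMM factors (edgeR 4.0.16), other totals, pseudocounts, minimum levels, depth filters, weights of cells and cells kept. Members, lists and comparisons were chosen with earlier results of these data known. The scripts ran on Python 3.11.15 with matplotlib 3.10.9, pandas 2.3.3, scipy 1.17.1 and numpy 2.4.6, and the interval was tested on simulated data.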

Additional observations from a re-analysis of the deposited data

How the results depend on the processing

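Of 117 alternative values, 80 stayed the same. All were counts of genes past the fold, held to within 1.5 times the reported count, except the share of all cells in cluster 2. That share was held to its interval and stayed within it. A minimum level of 5 CPM, which measures more genes, gave 276 lower genes against the other clusters, and in the order higher and lower 1079 and 759 for fasted against ad libitum spleen, 623 and 895 for refed against fasted spleen, 1244 and 1082 for fasted against ad libitum bone marrow, 1104 and 1298 for refed against fasted bone marrow, and 401 and 651 for bone marrow against spleen. Thinned cells, which hold fewer UMIs, gave 1256 and 1001, 894 and 1307, 1585 and 1444, 1488 and 1660, and 811 and 1132 in those same 5 comparisons. Totals without ribosomal protein and mitochondrial genes gave 24 higher genes against the other clusters, 554 lower in fasted spleen, 452 higher and 623 lower in refed spleen, 1059 higher in fasted bone marrow, 1108 lower in refed bone marrow and 346 higher in bone marrow against spleen. For the last, TMM factors gave 206 and a pseudocount of 1 CPM 202. With each gene's highest cell left out, 350 were higher and 720 lower in fasted bone marrow, and 379 lower in refed bone marrow. Against the other clusters, the mean over cells gave 104 lower genes, the mean over populations 8 higher, and the 2 alternatives chosen after seeing the data gave 105 lower without cluster 10 and 104 lower without tumour populations. The cause of these shifts was not tested beyond what each alternative changes by construction.

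Of 1199 alternative list medians 83 moved by over 0.2, and 10 others, whose reported median was at least 0.2 from 0, turned sign. The dividing cell median in fasted spleen became 0.06 with totals without ribosomal protein and mitochondrial genes, 0.05 at 5 CPM, 0.20 as the mean over cells and 0.25 in thinned cells, and in refed spleen -0.17, -0.17, -0.24 and -0.47. In bone marrow against spleen it became -0.01 as the mean over cells, and the hypoxia median in fasted bone marrow became -0.34 in thinned cells. Of 1830 alternative values of named genes 257 left the counting interval, 78 of them among the 190 from thinned cells, and 2 turned sign, Cd3d in refed against ad libitum spleen to 0.45 and Ikzf2 in bone marrow against spleen to -0.09, both without cells with a Cd3e UMI. No paired analysis was possible because each population is 1 sample. Mice could not be told apart within a population, and the 54 fasted bone marrow cells limit precision there.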
